A study of Mus musculus with 15 samples.

Results

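The data describe how the transcriptome of mouse BMSC (a usual abbreviation for bone marrow stromal cells) differed with and without NZM when both groups had received H2HO. They were taken from a table of TPM, which gives each gene's share of a library's transcripts after correction for gene length. Of the 15 libraries in the series, 6 were BMSC and entered the comparison, 3 in the group named Aged (treatment H2HO) and 3 in the group named Aged_NZM (treatment H2HO+NZM). All 6 came from wild type bone marrow, from polyadenylated RNA. The series' text states that NZM followed pretreatment with a model drug. The labels explain neither H2HO nor NZM, nor the strain, age, dose or duration, nor whether the 3 libraries of a group came from separate animals or cultures. P-values therefore rest on the spread within these triplets alone, and that spread may be technical. BMSC without H2HO were not analysed here, so no level below can be set against untreated cells. Of 56979 Ensembl identifiers, 13865 (24.3%) reached 1 TPM in at least 3 of the 6 libraries and were tested.

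Marrow stromal cells are fibroblast-like cells that secrete a collagen-rich matrix, can give rise to bone, fat and cartilage cells, and supply the chemokine Cxcl12 and the Kit ligand that hold blood stem cells in the marrow. Stressed or long-cultured stromal cells commonly stop dividing under the control of CDK inhibitors such as the products of Cdkn1a and Cdkn2a, and they secrete cytokines, proteases and growth factors. Oxidant stress acts on such cells in part through the transcription factor NRF2, which drives antioxidant enzymes, and through ATF4, which drives amino acid supply.

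The 6 libraries carried stromal markers. All 20 genes of the stromal marker list were tested, of which 14 rose, 3 fell and 3 were not called. Over all tested genes, 21.6% rose and 48.9% fell. Their summed level ranged from 3997 to 4122 TPM in the Aged libraries and from 7925 to 8000.2 TPM in the Aged_NZM libraries. That sum includes the abundant Col1a1, Col1a2, Col3a1 and Cxcl12, so it does not describe each marker. Twist2, a member that fell, went from 23.6, 23.6 and 23.5 TPM to 8.63, 6.52 and 7.52 TPM (log2 change -1.53). Pdgfra, a growth factor receptor of mesenchymal cells, stood at 95.7, 88.4 and 90.1 TPM in Aged and 208, 213 and 216 TPM in Aged_NZM, and Prrx1, a mesenchymal transcription factor, at 162, 150.2 and 154 and 216, 226 and 224 TPM. Lepr, the leptin receptor that marks perivascular stromal cells in the marrow, was low, at 0.54, 0.64 and 0.63 TPM in Aged and 0.27, 0.18 and 0.19 TPM in Aged_NZM, and was not tested. Of 20 leukocyte and macrophage markers, 6 were tested, with a sum that ranged from 123 to 132 TPM in the Aged libraries and from 108 to 120.5 TPM in the Aged_NZM libraries. Ptprc (the pan-leukocyte antigen CD45) and Adgre1 (F4/80) were at most 0.02 and 0.03 TPM in any library, and C1qb, C1qc and Tyrobp were listed at 0 in all 6. The neutrophil list of 14 genes had a sum from 640.3 to 657 TPM in the Aged libraries and from 1486 to 1501 TPM in the Aged_NZM libraries, nearly all of it Lcn2. Of its granule genes, Ltf and Retnlg were listed at 0 in all 6 libraries and Mpo reached at most 0.15 TPM, but Camp rose from 6.99, 6.92 and 7.37 TPM to 22.1, 23.9 and 23.6 TPM (1.58) and Prtn3 from 3.85, 3.79 and 3.83 TPM to 7.72, 7.42 and 5.92 TPM (0.73). In these bulk libraries, fewer cells of a type and less RNA per cell cannot be told apart.

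The groups separated along a single direction. Pearson correlations of log2(TPM + 1) were 0.993 to 0.995 between libraries of a group and 0.956 to 0.958 between groups, across the genes tested, which are not independent. Principal component 1 held 83.6% of the variance. Each library detected (above 0 TPM) between 21728 and 23398 identifiers; TPM carry no record of sequencing depth, which is unknown.

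Most of the measured transcriptome changed with NZM. On the log2(TPM + 1) scale, 9774 of the 13865 genes (70.5%) were called changed by limma at an adjusted p under 0.05, of which 2999 rose (21.6% of those tested) and 6775 fell (48.9%). The median change of all tested genes was -0.18, and because TPM in a library add up to a fixed total, abundant genes that rise lower the share of all others. When each library was centred on its median gene, every change became 0.16 higher, and 4318 genes were called higher (31.1%) against 4907 lower (35.4%). The 2999 genes called higher on the deposited scale were also called higher after centring, 4907 of the 6775 lower calls stayed lower, and none turned to the opposite call. As centring moved every change upward, it put mainly the lower calls at risk. In 73.8% of the tested genes the 3 libraries of a group all lay on the same side of those of the other group. A log2 change of at least 1 was reached by 507 genes that rose and 582 that fell. With such a high share of calls over all genes, the counts given below for groups of genes are to be read against 21.6% higher and 48.9% lower, and a group is described by its median beside the overall -0.18.

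**Figure D1:**
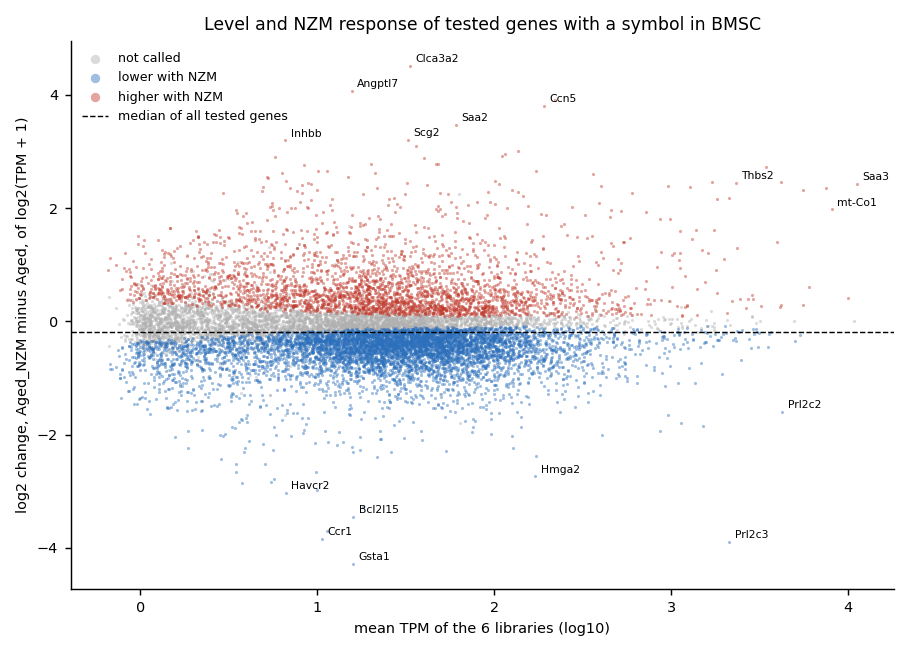
Each point is a tested gene with a symbol, placed by its mean TPM over the 6 BMSC libraries (log10, x axis) and by its log2 change with NZM (Aged_NZM minus Aged, y axis). Red points rose, blue points fell and grey points were not called. The dashed line is the median change, -0.18, and the cloud of points lies mostly below 0 while Saa3 (2.43) and mt-Co1 (1.98) lie far above the line at high TPM.

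The share of calls grew with the level of the gene. Among 4299 genes under 10 TPM in the higher group, 18.6% rose and 30.5% fell. Among 7531 genes from 10 to 100 TPM these shares were 21.7% and 57.0%, and among 2035 genes at 100 TPM or more they were 27.7% and 57.6%. Adding up all identifiers, 17.8% of the TPM of a library changed place. Saa3 took 8.63% of the TPM gained. The 13 coding genes of the mitochondrial genome and their nuclear copies Gm28661, Gm28437 and Gm10925 took 29.9% of it, and Prl2c2 with Prl2c3 made up 4.49% of the TPM lost.

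The 12 largest rises were those of Clca3a2, Angptl7, mt-Co3, Ccn5, Saa2, Scg2, Inhbb, Serpina3g, mt-Nd4l, Steap4, Lbp and Svep1, of which mt-Co3 and mt-Nd4l are described with the mitochondrial genes. Clca3a2, of a family that regulates chloride channels, rose from 1.85, 2.01 and 1.78 TPM to 63.2, 66.1 and 65.5 TPM (log2 change 4.52, SE 0.059). Angptl7, a secreted angiopoietin-like protein, went from 0.63, 1.22 and 0.81 TPM to 30.8, 28.3 and 32.4 TPM (4.07, SE 0.12). Ccn5, a matricellular protein of the CCN family, stood at 25.7, 24.8 and 23.6 TPM without NZM and at 377, 351 and 351 TPM with it (3.81, SE 0.045). In these 3 genes the libraries of a group lay far from the other group, with mean TPM 34.5, 34.4 and 14.6 times as high. Angptl7 without NZM had a mean of only 0.887 TPM (SD 0.302, n = 3), so its ratio is imprecise. Inhbb, which encodes an activin and inhibin subunit, rose from 0.43, 0.54 and 0.51 TPM to 13.8, 12.7 and 11.7 TPM. Svep1, an adhesion protein of the matrix, rose from 0.6, 0.63 and 0.57 TPM to 11.1, 11.1 and 10.7 TPM, so both were under 1 TPM in every library without NZM. Scg2, a granin stored in secretory vesicles, went from 5.83, 6.13 and 4.77 TPM to 56.7, 59.8 and 62 TPM. Steap4, a metalloreductase of the plasma membrane and endosomes, went from 26.8, 25.5 and 24 TPM to 197, 205 and 209 TPM. The adjusted p of these genes and of the Saa2, Serpina3g and Lbp described with the acute-phase genes was at most 3.60e-08.

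Among the 12 largest falls were those of Gsta1, Prl2c3 and the receptor genes Ccr1, Havcr2, Lilr4b and Lilrb4a. Gsta1, a glutathione transferase, fell from 31.1, 32.9 and 30.0 TPM to 0.64, 0.71 and 0.65 TPM (log2 change -4.28, SE 0.073), a mean 47 times lower. Prl2c3, a proliferin of the prolactin family, fell from 3963, 4018 and 3991 TPM to 261, 273 and 272 TPM (-3.89, SE 0.032). Its close relative Prl2c2 fell from 6164, 6469 and 6506 TPM to 2021, 2149 and 2185 TPM (-1.59). The proliferin genes are near-identical copies, so the way reads were shared between them is uncertain, but both fell. Ccr1, a receptor for inflammatory chemokines, went from 19.9, 20.4 and 22.1 TPM to 0.53, 0.66 and 0.4 TPM. Havcr2, which encodes the receptor TIM-3, went from 13.1, 12.2 and 12.5 TPM to 0.68, 0.54 and 0.8 TPM. Ptpn22, a tyrosine phosphatase of lymphocyte signalling, went from 16.5, 18.7 and 18.2 TPM to 1.73, 2.24 and 1.96 TPM. Ccr1 and Havcr2 were under 1 TPM in every library with NZM, and Ptpn22 was above 1 TPM in all 3. Lilr4b and Lilrb4a are a closely related pair of inhibitory receptors whose reads may also be split. Lilr4b went from 22.4, 21.2 and 22.2 TPM to 0.46, 1.19 and 0.69 TPM, and Lilrb4a from 17.7, 19.8 and 17.9 TPM to 1.15, 1.89 and 1.41 TPM. Of the leukocyte and macrophage markers, Ptprc and Tyrobp were at or near 0 in both groups, 2 of the 6 tested members fell and none was called higher, against 2 and 2 after centring. Cd68, a lysosomal protein abundant in macrophages, fell from 26.4, 25.8 and 22.6 TPM to 13.9, 12.4 and 12.8 TPM (-0.88), and Mrc1, the mannose receptor, from 1.95, 1.72 and 1.21 TPM to 0.14, 0.08 and 0.11 TPM (-1.23). Lck, a kinase of T cells and the 1 tested member of 12 T and NK cell markers, fell from 3.03, 3.44 and 3.44 TPM to 1.3, 1.51 and 1.88 TPM (-0.75). The part of other cell types in the falls of the receptor genes was not tested.

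The 12 largest falls also included Hmga2, Upp1, Acsbg1, Cyp1a1 and Bcl2l15. Hmga2, a chromatin protein of proliferating and embryonic cells, fell from 299, 293 and 303 TPM to 41.5, 44.9 and 45.8 TPM (log2 change -2.73, SE 0.043). Upp1, which breaks down uridine, fell from 33.4, 31.6 and 36 TPM to 2.66, 2.43 and 2.67 TPM. Acsbg1, an acyl-CoA synthetase, fell from 9.58, 10.5 and 11 TPM to 0.49, 0.51 and 0.76 TPM. Cyp1a1, the classical target of the aryl hydrocarbon receptor, went from 10.7, 10.1 and 11.2 TPM to 0.68, 0.56 and 0.83 TPM. Bcl2l15, a member of the BCL2 family, went from 29.4, 30.1 and 30.7 TPM to 1.79, 2.13 and 1.65 TPM. For all 12 of the largest falls the adjusted p was at most 2.50e-08 (limma), and the 3 libraries of each group did not overlap. A call and the lack of overlap were conditions for choosing the largest rises and falls, so neither adds support. Groups did not overlap in 73.8% of all tested genes.

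**Figure D2:**
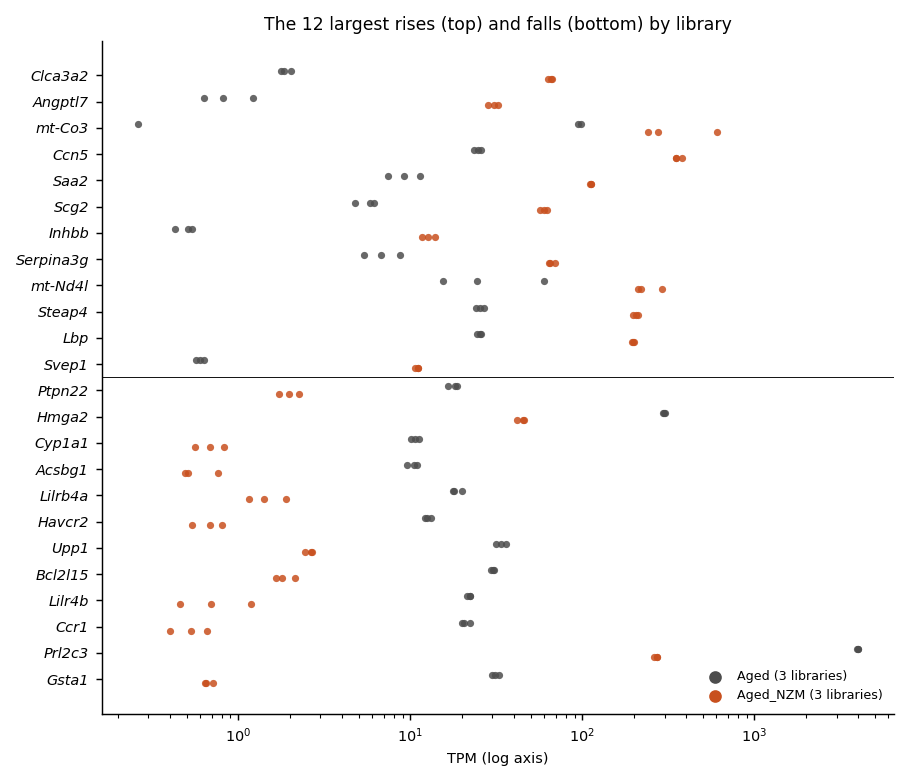
TPM (log axis) of the 12 genes with the largest rises (top) and the 12 with the largest falls (bottom), 1 point per library, Aged in grey and Aged_NZM in orange. The libraries of a group sit close together for most genes. They lie further apart for mt-Co3, with 1 Aged library at 0.26 TPM and the other Aged libraries at 94.2 and 98.7 TPM, and for mt-Nd4l, with Aged libraries at 24.5, 15.5 and 59.9 TPM.

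Nearly all tested collagen genes rose, as did most other genes of the extracellular matrix. Of 17 collagen genes tested, 16 rose and 1 fell, with a median log2 change of 1.13. Col1a2 rose from 458, 424 and 427 TPM to 1541, 1516 and 1519.8 TPM (1.81, SE 0.037). Its partner chain in type I collagen, Col1a1, rose from 329.8, 299.8 and 297 TPM to 903, 839 and 847 TPM (1.48). Col3a1, the type III chain, went from 307, 286 and 291 TPM to 787, 779.9 and 781 TPM. Col6a1, of the beaded filaments around cells, went from 103, 94.5 and 96.3 TPM to 287, 279 and 274 TPM. The largest collagen change was that of Col12a1, a fibril-associated collagen, from 40.2, 37.1 and 37.5 TPM to 138, 145 and 147 TPM (1.88). Col11a1, a minor fibrillar chain, rose from 1.75, 1.66 and 1.39 TPM to 6.4, 7.1 and 7.16 TPM. Col7a1, the anchoring-fibril collagen of skin, was the member that fell, from 5.12, 4.8 and 4.6 TPM to 3.22, 2.98 and 2.8 TPM. The summed TPM of the collagen list ranged from 1539.6 to 1675 TPM in the Aged libraries and from 4420.4 to 4518 TPM in the Aged_NZM libraries.

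Most other matrix proteins and the enzymes that process collagen were also higher. Among 26 non-collagen matrix genes, 23 rose and 2 fell (median 1.15). Thbs2, a thrombospondin, rose from 756, 689 and 700.0 TPM to 3961, 3901 and 3869.6 TPM (2.45, SE 0.041) and was among the largest gains in TPM of any gene. Nid2, a basement membrane protein, went from 4.07, 4.47 and 4.47 TPM to 37.5, 35.6 and 33.9 TPM. Its relative Nid1 stood at 252, 232 and 228 TPM in Aged and 243, 237 and 235 TPM in Aged_NZM and was not called (adjusted p = 0.886). Fmod, a proteoglycan that binds collagen fibrils, rose from 2.76, 2.96 and 2.39 TPM to 17.9, 16.8 and 17.4 TPM. Efemp1, a fibulin, rose from 9.68, 8.5 and 7.97 TPM to 41.9, 42 and 42.8 TPM. Fibronectin (Fn1) went from 1369, 1189.9 and 1235 TPM to 2762, 2713 and 2692 TPM (1.11). The members that fell were Tnxb (-0.35) and Vcan (-0.12, adjusted p = 0.0498), and the count of falls was 1 without any of the Aged libraries or without the first or the second Aged_NZM library. Of 17 genes for collagen processing and crosslinking, 15 rose and 1 fell (median 0.86). Lox, the lysyl oxidase that crosslinks collagen, rose from 585, 543 and 539 TPM to 1656, 1709 and 1702 TPM. Pcolce, an enhancer of procollagen cleavage, rose from 259, 253 and 247 TPM to 683, 641 and 656 TPM. The procollagen protease Adamts2 rose from 12.7, 10.8 and 11.2 TPM to 42.5, 39.9 and 39 TPM. The adjusted p of the named matrix genes that rose was at most 5.14e-07.

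Proteases, integrins and plasminogen activators were divided. Of 22 proteases and inhibitors tested, 16 rose and 5 fell (median 0.57). Mmp3, a broad-spectrum matrix protease, rose from 11.6, 9.03 and 10.1 TPM to 45.8, 46.1 and 46.9 TPM (2.08). Mmp10, a close relative, fell from 6.94, 7.92 and 6.42 TPM to 0.59, 0.61 and 0.73 TPM (-2.30). The collagenase Mmp13 was low and fell from 3.55, 3.77 and 4.56 TPM to 1.18, 0.86 and 1.46 TPM. The protease inhibitor Timp1 rose from 918, 999 and 1017 TPM to 2291, 2267 and 2254 TPM (1.22). Plaur, the urokinase receptor, fell from 152, 155 and 154 TPM to 40.1, 36.9 and 36.9 TPM (-1.99), and urokinase itself (Plau) by 0.57 on the log2 scale. Plat, the tissue-type activator, rose from 61.2, 53.2 and 56.5 TPM to 157, 165 and 156 TPM. Among 12 integrins, 5 rose and 3 fell. The collagen receptors Itga11 (2.63) and Itga1 (1.91) rose, while the laminin receptor chain Itga6 (-2.27) and the collagen receptor chain Itga2 (-1.48) fell. Itga11 went from 5.01, 4.67 and 5.83 TPM to 37.3, 37.1 and 36.7 TPM and Itga6 from 31, 28.1 and 29.1 TPM to 5.24, 5.07 and 5.6 TPM.

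Most smooth muscle contractile genes that were tested rose. Of 11 tested, 9 rose and 1 fell (median 0.69), and 16 were listed, of which Myh11, Actg2, Des, Synpo2 and Myocd did not reach the filter. Acta2, the smooth muscle actin that marks myofibroblasts, rose from 308, 295 and 301 TPM to 1185, 1132 and 1122 TPM (1.92, SE 0.035). Tagln, an actin-binding protein, rose from 47.6, 43.1 and 46.7 TPM to 232, 232 and 222 TPM (2.29). Cnn1, calponin, rose from 11.6, 10.8 and 10.8 TPM to 48.1, 46.7 and 49.3 TPM (2.03). Smtn was the member that fell (-0.42). Among 16 target genes of YAP and SRF, the factors that read cell tension and actin, 11 rose and 2 fell. Ccn2 went from 158, 148 and 154 TPM to 442, 434 and 428 TPM (1.50), and Amotl2 from 92.1, 86.9 and 83.8 TPM to 243, 234 and 236 TPM. Ankrd1 fell from 312, 312 and 311 TPM to 128, 141 and 133 TPM (-1.21) and Srf itself by 0.48 on the log2 scale.

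SRF binds a sequence called the CArG box. In the RefSeq promoter table (build GRCm38.p6, 250 bases before and 50 after each annotated start, both strands searched), 1.63% of 32851 promoters held a CArG box, and 2 of the 10 contractile genes with a promoter there did. The promoter of Myl9, the regulatory myosin light chain of smooth muscle, which rose from 112, 105 and 113 TPM to 281, 269 and 259 TPM (1.28), is shown with its match in capitals (chr2:156775214-156775513, plus strand). A match is a description of the letters and not a measured binding site. Here and for the motifs below, the overall share is per promoter. A listed gene was counted if any of its promoters held the letters. The shares are therefore in unlike units, and a gene with several promoters had more chances of a match.
Myl9: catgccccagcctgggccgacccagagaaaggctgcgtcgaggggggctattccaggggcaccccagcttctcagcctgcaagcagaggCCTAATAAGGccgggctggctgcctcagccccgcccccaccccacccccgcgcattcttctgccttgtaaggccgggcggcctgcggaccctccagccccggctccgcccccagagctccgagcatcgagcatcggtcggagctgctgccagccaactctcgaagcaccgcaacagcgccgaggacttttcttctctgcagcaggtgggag

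Secreted regulators of growth changed in both directions. Among 20 genes of TGF-beta and activin signalling, 13 rose and 5 fell (median 0.51). The ligand Tgfb2 rose from 3.11, 4.36 and 4.21 TPM to 9.3, 9.21 and 9.1 TPM. Ltbp2 and Ltbp1, of the family of latent TGF-beta binding proteins, rose by 1.90 and 1.29 on the log2 scale. Tgfb1 was 18.5, 18.8 and 19.5 TPM in Aged and 19.6, 18.8 and 16.4 TPM in Aged_NZM, with overlapping groups (adjusted p = 0.542). Inhba, the activin A subunit, fell from 296, 279 and 269 TPM to 118, 121 and 124 TPM (-1.21), opposite to Inhbb. The intracellular mediators Smad2 (-0.44) and Smad4 (-0.46) and the feedback inhibitor Smad7 (-0.31) fell. Of 15 BMP pathway genes, 8 rose and 3 fell. The ligand Bmp4 rose from 1.97, 1.58 and 1.55 TPM to 4.83, 5.6 and 6.1 TPM, and the antagonist Chrdl1 from 1.46, 1.74 and 2.16 TPM to 8.55, 8.75 and 8.38 TPM. The BMP target Id1 fell from 219, 186 and 206 TPM to 70.7, 64.1 and 64.1 TPM (-1.60). Of 19 Wnt pathway genes, 15 rose and 2 fell (median 0.60), led by the secreted modulators Sfrp2 (2.02), Dkk3 (1.50), Sfrp4 (1.48) and Dkk2 (1.38), all under 20 TPM in Aged_NZM except Dkk3 at 33.2 ± 0.817 TPM (mean ± SD, n = 3). Ctnnb1, beta-catenin, fell by 0.48 on the log2 scale.

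Igf1, the main anabolic growth factor of mesenchymal tissue, rose from 2.04, 1.92 and 2.21 TPM to 15.2, 14.5 and 17.1 TPM (2.44, SE 0.086). Of its binding proteins, Igfbp7 rose from 226, 241 and 251 TPM to 604, 528 and 554 TPM, and Igfbp3 fell from 52.4, 55.9 and 54.4 TPM to 14.8, 16.1 and 14.7 TPM (-1.77). Pdgfrb, a receptor of mural and stromal cells, rose from 26.9, 24.7 and 24.7 TPM to 98.7, 96.7 and 101 TPM (1.92). Vegfd, a lymphatic growth factor, rose from 28.8, 30.1 and 29.3 TPM to 138, 128 and 125 TPM (2.11). Ereg, a ligand of the EGF receptor, fell from 123, 120.3 and 118 TPM to 29, 32.2 and 30.2 TPM (-1.95). Areg, another, fell from 3.75, 4.4 and 4.17 TPM to 0.54, 0.6 and 0 TPM (-1.92), and was listed at 0 in the third Aged_NZM library. Egfr itself rose by 0.91 on the log2 scale. Vegfa, the main vascular growth factor, was lower with NZM, at 411, 399 and 399 against 553, 543 and 549.7 TPM (-0.44).

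Most immediate early genes and feedback genes of MAP kinase signalling fell. Of 19 AP-1 and immediate early genes, 14 fell and 2 rose (median -0.62), and the count of rises was 1 without the first Aged or the first Aged_NZM library. Fosl1, an AP-1 subunit induced by ERK signalling, fell from 224, 218 and 224 TPM to 63.4, 60.6 and 57.5 TPM (-1.86, SE 0.042). The zinc finger factor Egr1 fell from 53.2, 51.8 and 50.4 TPM to 20.1, 20.0 and 20.0 TPM (-1.33), and its relative Egr3 from 10.3, 9.96 and 9.74 TPM to 1.35, 1.24 and 1.22 TPM (-2.28). Atf3, a stress-induced factor, fell from 17, 17.5 and 17.3 TPM to 5.96, 6.83 and 6.52 TPM. Fosl2 was a member that rose (0.73), and Junb was not called (174, 169.7 and 166 and 177, 177 and 169.7 TPM). Among 14 feedback genes, 11 fell and none rose (median -0.60), and 1 rose after centring. Dusp4, a phosphatase that switches off MAP kinases in the nucleus, fell from 90.9, 90.8 and 87.3 TPM to 17.8, 17.4 and 17.8 TPM, and the related Dusp5 from 46.8, 44.1 and 41.8 TPM to 9.04, 7.37 and 8.01 TPM. The ERK-responsive factor Etv4 fell from 42.5, 41 and 43.5 TPM to 16.5, 15.5 and 16.2 TPM. Dusp1 lay at 106, 99.9 and 95.5 TPM in Aged and 102, 93.4 and 89.5 TPM in Aged_NZM and was not called (adjusted p = 0.216).

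Acute-phase genes and complement were among the groups with the highest medians. Of 19 cytokine and acute-phase genes tested, 12 rose and 6 fell (median 0.86). Saa3, a serum amyloid A made outside the liver, rose from 3212, 3666 and 3634 TPM to 18489, 19072 and 19041 TPM (2.43, SE 0.053), the largest gain in TPM of any gene. Saa2 rose from 7.37, 9.17 and 11.4 TPM to 111, 112 and 112 TPM (3.47). Saa1 rose from 8.5, 8.44 and 9.34 TPM to 68.4, 75.3 and 70.1 TPM (2.89). The serum amyloid genes are similar in sequence, so the split between them is uncertain. Hp, haptoglobin, which binds free haemoglobin, went from 11.8, 12 and 10.7 TPM to 92.1, 80.5 and 81.6 TPM (2.78). Lbp, which carries lipopolysaccharide to its receptor, went from 25.5, 25.7 and 24.4 TPM to 199, 194 and 196 TPM (2.91). Lcn2, which binds bacterial iron carriers, went from 630.2, 623 and 642 TPM to 1467, 1451 and 1453 TPM. Serpina3g, a protease inhibitor with many close copies in the mouse genome, went from 5.39, 8.68 and 6.75 TPM to 69, 63.5 and 64.9 TPM. Ptx3, a secreted pattern recognition protein, went from 188, 188 and 183 TPM to 725, 733 and 744 TPM. These genes were higher in all 3 Aged_NZM libraries, and none of the groups overlapped, which also held for 73.8% of all tested genes. For Saa2, Serpina3g and Lbp, the lack of overlap was a condition of their choice as largest rises. Lcn2 is also a neutrophil marker. Of the 5 neutrophil markers tested, 4 rose (Lcn2, Camp, Prtn3 and Mmp9), against 21.6% of all tested genes. The remaining tested marker was lower but not called (log2 change -0.66), and Ltf and Retnlg were at 0 in every library. The part of neutrophils in the rise of Lcn2 was not tested.

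The cytokines themselves were divided. Il6 rose from 85.3, 89.4 and 87.9 TPM to 149, 168 and 162 TPM (0.86). Its signalling receptor chain Il6st (1.02) and the related receptor Osmr (1.15) also rose, as did the feedback inhibitor Socs3, from 42.2, 44 and 42.8 TPM to 84.7, 84.4 and 83.4 TPM. Tslp rose from 6.24, 4.84 and 6.43 TPM to 16.5, 19.1 and 20.2 TPM. The alarmin Il33 fell from 119, 115 and 119 TPM to 32.8, 35.4 and 37.3 TPM (-1.71). Lif, another cytokine that signals through Il6st, fell from 40.9, 37.2 and 36.8 TPM to 13.3, 12.5 and 12 TPM (-1.53). Tnf and Il1b, the classical early inflammatory cytokines, did not pass 0.23 TPM in any library. Among 12 chemokines tested, 9 rose and 1 fell. Cxcl12 rose from 129, 126 and 129 TPM to 675, 685 and 678 TPM (2.40). Cxcl5, which attracts neutrophils, rose from 555, 580.2 and 563 TPM to 1066, 1095 and 1139 TPM (0.96). Cxcl2, another neutrophil attractant, fell from 36.3, 34.2 and 31.9 TPM to 14.5, 14.1 and 16 TPM (-1.15).

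Of 9 complement genes tested, 7 rose and none was called lower (median 2.00). C3, the central component, rose from 107, 96.5 and 102 TPM to 632, 621 and 619.7 TPM (2.60, SE 0.041). C4b, of the classical pathway, rose from 37, 34.6 and 34.2 TPM to 161, 153 and 152 TPM. C1s1, a protease of the C1 complex, rose from 156, 143 and 148 TPM to 626, 649.5 and 639 TPM. The C1 inhibitor Serping1 rose from 20.5, 17.1 and 20.7 TPM to 81.4, 81.4 and 75.2 TPM (1.98). C1qb and C1qc, the macrophage-made chains of C1, were listed at 0. The sum of the complement list ranged from 512 to 548 TPM in the Aged libraries and from 2225 to 2264 TPM in the Aged_NZM libraries. Of 15 genes of class I antigen presentation, 11 rose and 4 fell (median 0.31), against 11 and 1 after centring. Those that rose included the peptide transporter Tap2 (1.03) and the non-classical H2-T23 (0.87). Interferon-stimulated genes were mixed: of 30, 11 rose and 9 fell, which became 16 and 6 after centring, and 7 rose without the second Aged_NZM library. Ifit3 rose from 6.36, 6.37 and 6.81 TPM to 12.6, 11.8 and 11.5 TPM, and Oas1a fell from 11.2, 10.7 and 10.1 TPM to 6.42, 5.53 and 6.37 TPM. Of 19 NF-kB genes, 7 rose and 9 fell, which became 9 and 6 after centring.

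Cell cycle genes split by phase. CDK inhibitors moved in opposite directions. Cdkn1a, which encodes p21, fell from 213, 202 and 196 TPM to 51.8, 50.5 and 46.5 TPM (-2.02, SE 0.050). Cdkn2a, which encodes p16 and p19ARF from overlapping transcripts that gene-level values cannot separate, rose from 261, 263 and 278 TPM to 699, 657 and 676 TPM (1.34, SE 0.038). Cdkn2b, which encodes p15, rose from 23.1, 25.4 and 21.6 TPM to 67.1, 68.8 and 67.4 TPM (1.50). Trp53 fell from 70.6, 65.2 and 67.4 TPM to 48.2, 48.8 and 45.5 TPM (-0.50). Lmnb1, a nuclear lamina gene often low in senescent cells, was 28.3, 29.3 and 31.5 TPM in Aged and 27.1, 27.2 and 28.4 TPM in Aged_NZM with overlapping groups (adjusted p = 0.105). Glb1, the gene of the lysosomal beta-galactosidase, was slightly higher with NZM (0.20, from 52.7, 53.8 and 57.7 TPM to 65.9, 60.8 and 62.7 TPM). Of 20 p53 target genes, 15 fell and 3 rose (median -0.49), against 13 and 5 after centring. Pmaip1, which encodes the death agonist NOXA, fell from 16.9, 17 and 16.7 TPM to 4.88, 4.51 and 5.37 TPM. Aen, a nuclease of apoptosis, fell from 77.9, 77.5 and 73.5 TPM to 26.6, 25.1 and 25.6 TPM. Mdm2, whose product degrades p53, fell from 83.1, 77.5 and 81.5 TPM to 39, 37.1 and 37.3 TPM. Eda2r, a death receptor, fell from 13.9, 13.8 and 11.3 TPM to 2.27, 4.44 and 3.43 TPM (-1.70). Fas was a member that rose (0.53).

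Most genes of the G1 phase and of DNA replication fell. Of 17 cyclin, CDK and E2F genes of G1, 14 fell and 2 rose (median -0.42), against 11 and 3 after centring. Cyclin D1 (Ccnd1) fell from 158, 155 and 153 TPM to 58.7, 58.9 and 59.1 TPM (-1.39), and the growth regulator Myc from 219, 211 and 217 TPM to 118, 117 and 115 TPM (-0.88). Of 29 replication genes, 26 fell and 2 rose (median -0.67), against 23 and 3 after centring. The licensing factor Cdt1 fell from 95, 88.2 and 86.6 TPM to 39.8, 34.5 and 35.5 TPM, and its partner Cdc6 from 34.3, 34.4 and 36.2 TPM to 14.6, 16.1 and 18 TPM. The helicase subunit Mcm2 fell from 168, 155 and 159.7 TPM to 73.2, 71.3 and 72.5 TPM (-1.14). Pcna, the sliding clamp, fell from 479, 457 and 451 TPM to 271, 254 and 257 TPM (-0.83). The members that rose, Tyms (0.26) and Tk1 (0.21, adjusted p = 0.0322), make thymidine nucleotides, and the count of rises was 1 without the third Aged library or without the first or the second Aged_NZM library. Of 27 genes of DNA damage sensing and repair, 22 fell and 1 rose (median -0.49), against 17 and 3 after centring. Ung, which removes uracil from DNA, fell from 13.8, 14.3 and 13.9 TPM to 3.05, 4.2 and 3.69 TPM (-1.70), and the checkpoint kinase Chek1 from 13.1, 14.8 and 14.7 TPM to 5.78, 7.09 and 6.54 TPM. Chek2, Rad54l, Fancd2 and Lig1 were not called, and Fanci was higher (0.26), a call that was lost without the second Aged library or without any of the Aged_NZM libraries.

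Nearly all tested genes of mitosis rose. Of 30 tested, 28 rose and none was called lower (median 0.62), and after centring all 30 were called higher. Ccnb2, a cyclin of mitotic entry, rose from 8.29, 10.3 and 10.8 TPM to 25.6, 26.9 and 32.2 TPM (1.44, SE 0.11). Cenpa, the centromere histone, rose from 18.7, 17.2 and 17.6 TPM to 41.7, 41.3 and 43 TPM (1.19). Nusap1, of the mitotic spindle, rose from 11.4, 11.9 and 12.9 TPM to 26.4, 29.8 and 29.8 TPM. Ube2c, which supports the anaphase-promoting complex, rose from 44, 41.3 and 43.3 TPM to 92.4, 89.8 and 91.6 TPM. The proliferation marker Mki67 rose from 23, 20.8 and 22.1 TPM to 41, 46.5 and 44.1 TPM (0.97). Bub1 and Mad2l1, of the spindle checkpoint, were the members not called (log2 changes 0.19 and 0.043, adjusted p = 0.0521 and 0.437).

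**Figure D3:**
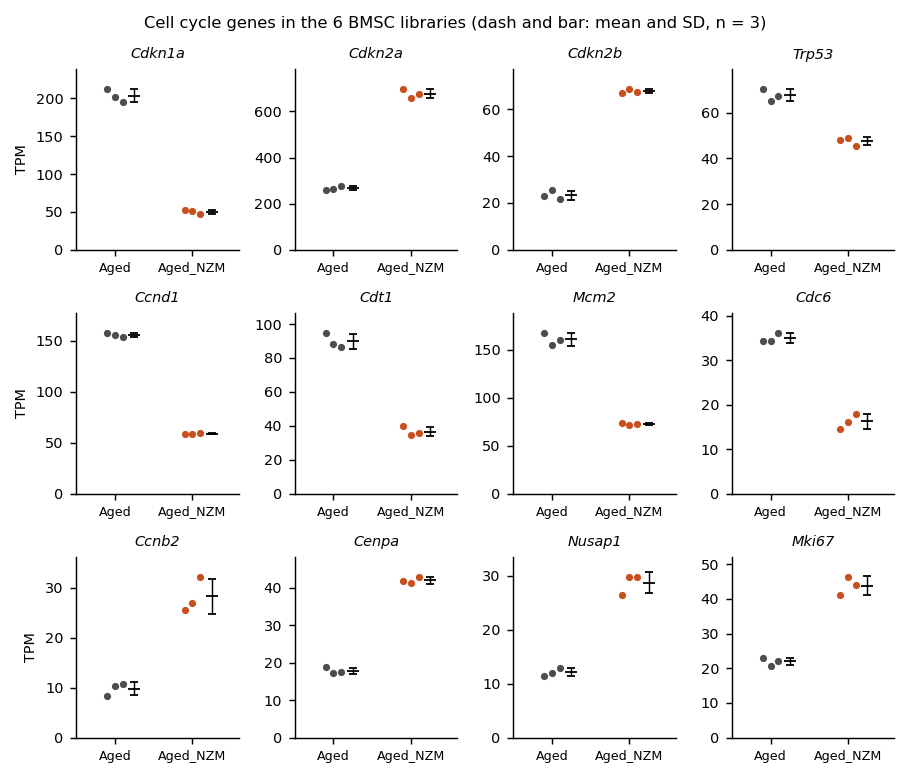
TPM of 12 cell cycle genes in each BMSC library (points, Aged in grey and Aged_NZM in orange), with the mean and SD of 3 libraries beside them; every y axis starts at 0. Cdkn1a, Trp53, Ccnd1, Cdt1, Mcm2 and Cdc6 are lower with NZM, and Cdkn2a, Cdkn2b, Ccnb2, Cenpa, Nusap1 and Mki67 are higher, with no overlap of the groups in any panel.

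The promoters of many mitotic genes carry the CHR element, TTTGAA, at which a repressor and activator complex of the late cell cycle acts. It was found on either strand in 17.9% of all 32851 promoters and in 18 of the 24 mitosis genes that had a promoter in the table. All 18 were genes that rose, among 22 that rose and had a promoter. These letters are short, a match is not a measured site, and the share of all promoters is not counted per gene. The promoter of Ccnb2 (chr9:70421505-70421804, minus strand) held 2 matches, in capitals.
Ccnb2: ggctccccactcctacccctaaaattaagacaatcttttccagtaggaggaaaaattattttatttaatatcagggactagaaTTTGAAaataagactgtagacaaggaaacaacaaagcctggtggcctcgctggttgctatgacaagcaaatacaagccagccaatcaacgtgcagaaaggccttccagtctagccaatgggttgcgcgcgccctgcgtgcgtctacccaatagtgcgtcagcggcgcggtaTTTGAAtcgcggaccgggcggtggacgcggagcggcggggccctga

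Most genes for making ribosomes, charging tRNAs, and folding and degrading proteins fell. All 25 ribosome biogenesis genes fell, with and without centring (median -1.28). Rrp9, a protein of the U3 particle that processes ribosomal RNA, fell from 120.3, 119 and 119 TPM to 31.1, 32.1 and 33.3 TPM (-1.86, SE 0.039). Ddx21, a nucleolar helicase, fell from 224, 217 and 214 TPM to 64.3, 69.5 and 67.5 TPM (-1.69). Dkc1, the pseudouridine synthase dyskerin, fell from 123, 123 and 124 TPM to 43.2, 41.6 and 42.8 TPM. Npm1, the abundant nucleolar protein nucleophosmin, fell from 1772, 1889.8 and 1946 TPM to 845, 865 and 918 TPM (-1.09). The sum of the list ranged from 6002 to 6099 TPM in the Aged libraries and from 2618 to 2683 TPM in the Aged_NZM libraries. The proteins of the cytosolic ribosome itself moved less. Of 34, 27 fell and none rose, but their median of -0.22 was close to the median of all genes, and 15 were called lower after centring. Rps2 fell most, from 82.9, 93.5 and 83.6 TPM to 45.2, 49.2 and 44.9 TPM (-0.89); ribosomal protein genes have many processed copies in the genome, so their TPM are uncertain. The E-box CACGTG, to which MYC binds, was in 7.15% of all promoters and in 6 of the 20 ribosome biogenesis genes with a promoter in the table.

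All 18 aminoacyl-tRNA synthetases fell (median -0.95), and 17 of them were called lower after centring. Gars, which charges glycine, fell from 484, 472 and 477 TPM to 190.0, 201 and 201 TPM (-1.27). Wars, which charges tryptophan, fell from 184, 163 and 173 TPM to 74.1, 69.1 and 69.7 TPM (-1.27). Of 27 proteasome subunits, 26 fell and none rose (median -0.51), for example Psmc2 of the regulatory cap, from 282, 284 and 275 TPM to 162, 174 and 167 TPM; Psmb1 was not called (-0.068, adjusted p = 0.101). Among 21 heat shock proteins and chaperonins, 17 fell (median -0.68), and 16 fell and 3 rose after centring. Hspd1, the mitochondrial chaperonin, fell from 507, 518 and 505 TPM to 212, 222 and 219 TPM (-1.22). Cct4, of the cytosolic chaperonin ring, fell from 325, 331 and 326 TPM to 161, 163 and 159.7 TPM. Hsp90ab1, a major cytosolic chaperone, fell from 3136, 2977 and 3012 TPM to 1915, 1871 and 1899.7 TPM. Hspa1a was the member that rose (0.27, adjusted p = 0.0347), and its call was lost without the second or the third Aged library or without the first or the third Aged_NZM library, while 3 members rose without the first Aged library. Endoplasmic reticulum stress genes, a list that holds regulators as well as chaperones, were divided: of 20, 10 rose and 7 fell, against 12 and 5 after centring. Calr, which folds secreted glycoproteins, rose from 870.0, 883 and 876 TPM to 1530.3, 1505 and 1539 TPM (0.80), and the regulator Xbp1 from 82.7, 77.2 and 77.1 TPM to 135, 134 and 135 TPM. The sensor Atf6 fell from 36.9, 31.6 and 32.9 TPM to 18.9, 19.9 and 20.4 TPM.

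**Figure D4:**
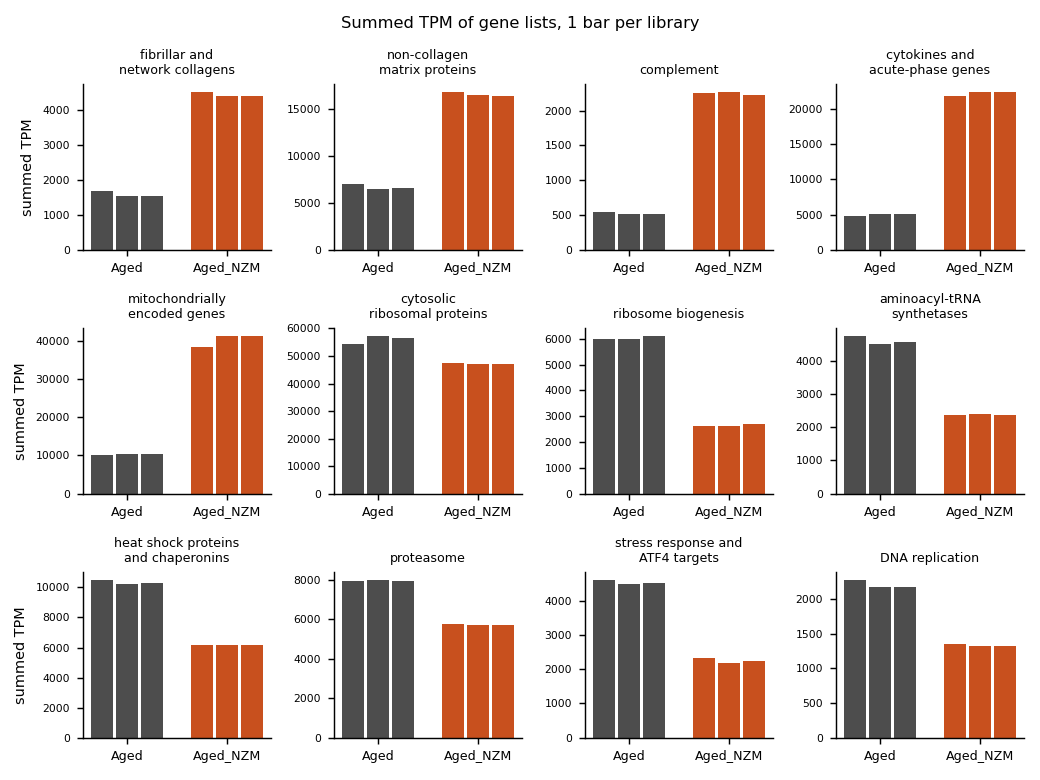
Summed TPM of 12 gene lists, 1 bar per library (Aged in grey, Aged_NZM in orange, y axes from 0). The sums of collagens, matrix proteins, complement, acute-phase and mitochondrially encoded genes are higher in all 3 Aged_NZM libraries, and those of ribosomal proteins, ribosome biogenesis, synthetases, chaperones, proteasome, ATF4 targets and DNA replication are lower in all 3.

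Targets of ATF4, the factor of the integrated stress response that raises amino acid uptake and synthesis, had one of the lowest medians of the 53 pathway lists. Of 22 tested, 19 fell and none rose (median -1.21). After centring, 18 fell and 3 rose, and on the deposited scale 1 rose without the third Aged library or without the second Aged_NZM library. Atf4 itself fell from 739, 762 and 760.4 TPM to 380.0, 374 and 369 TPM (-1.01, SE 0.031). Trib3, a feedback inhibitor of the response, fell from 111, 106 and 100.1 TPM to 32, 28.1 and 31.5 TPM (-1.76). Chac1, which degrades glutathione, fell from 151, 148 and 142 TPM to 45.9, 42.4 and 43.2 TPM (-1.73). Asns, asparagine synthetase, fell from 369.6, 348 and 347 TPM to 115, 117 and 118 TPM (-1.60). The serine synthesis enzymes Phgdh (-1.37) and Psat1 (-1.32), the mitochondrial folate enzyme Mthfd2 (-1.42) and the phosphatase subunit Ppp1r15a (-1.22) also fell. Ddit4 and Nupr1 were near 0 change (-0.026 and 0.026) and were not called.

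Slc7a11, the cystine transporter that is a target of both ATF4 and NRF2, fell from 21.7, 21.8 and 21.2 TPM to 4.44, 4.9 and 5.16 TPM (-1.95, SE 0.067). Letters of an ATF4 response element, TGATGNAA on either strand, were in 3.97% of all promoters and in 7 of the 20 ATF4 target genes with a promoter in the table, of which 6 were genes that fell. The promoter of Slc7a11 (chr3:50443564-50443863, minus strand) held 2 matches facing each other, in capitals.
Slc7a11: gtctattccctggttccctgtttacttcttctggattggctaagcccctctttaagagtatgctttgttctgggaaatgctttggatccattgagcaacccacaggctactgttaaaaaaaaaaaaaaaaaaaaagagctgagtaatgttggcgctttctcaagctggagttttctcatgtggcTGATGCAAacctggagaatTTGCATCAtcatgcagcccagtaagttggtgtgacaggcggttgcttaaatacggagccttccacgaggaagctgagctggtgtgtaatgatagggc

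Among 27 NRF2 target genes, 22 fell and 2 rose (median -0.49), against 18 and 4 after centring. Nqo1, a quinone reductase and standard readout of NRF2, fell from 213, 215 and 209 TPM to 43.3, 45.7 and 44.4 TPM (-2.23, SE 0.036). Gsta4, which detoxifies lipid aldehydes, fell from 66, 61.7 and 64.5 TPM to 13.2, 15 and 14.4 TPM (-2.10). Gclc, of the rate-limiting enzyme of glutathione synthesis, fell from 46.4, 43.2 and 44.8 TPM to 20.6, 18.8 and 17.8 TPM (-1.19). Hmox1, haem oxygenase, was among the most abundant of these genes and fell less, from 1125, 1070.1 and 1079 TPM to 755, 735 and 722 TPM (-0.57). The members that rose were Gstm1, from 206, 210.3 and 216 TPM to 350.0, 321 and 326 TPM (0.65), and Fth1, ferritin heavy chain, from 8691, 8506 and 8628 TPM to 11582, 11386 and 11444 TPM (0.41). The light chain Ftl1 fell from 5476, 5614 and 5602 TPM to 4423, 4397 and 4397 TPM (-0.34). As Fth1 and Ftl1 hold most of the TPM of this list, its summed TPM hardly differed, with sums from 19234 to 19354 TPM in the Aged libraries and from 19236 to 19538 TPM in the Aged_NZM libraries. The antioxidant response element TGACNNNGC (both strands) was in 12.4% of all promoters and in 8 of the 22 NRF2 targets with a promoter in the table, 7 of which fell. Prdx1, a peroxide-reducing peroxiredoxin with such a match (chr4:116685349-116685648, plus strand, match in capitals on the opposite strand), fell from 743, 758 and 767 TPM to 349.5, 372 and 375 TPM (-1.05).
Prdx1: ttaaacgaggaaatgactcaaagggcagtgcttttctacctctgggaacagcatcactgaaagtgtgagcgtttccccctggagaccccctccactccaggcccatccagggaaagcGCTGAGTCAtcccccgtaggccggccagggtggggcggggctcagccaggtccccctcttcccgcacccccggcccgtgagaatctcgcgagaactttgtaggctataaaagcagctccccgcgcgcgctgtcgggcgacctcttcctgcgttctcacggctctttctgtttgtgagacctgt

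Enzymes that remove superoxide and peroxide were divided. Of 21 tested, 10 rose and 8 fell (median -0.01). Sod2, the mitochondrial superoxide dismutase, rose from 102, 103 and 102 TPM to 165, 163 and 161 TPM (0.67). Txnip, the inhibitor of thioredoxin, rose from 135, 129.7 and 130.3 TPM to 211, 218 and 217 TPM. Prdx6 fell from 131, 129 and 128 TPM to 43.4, 45.8 and 44.3 TPM (-1.52), and catalase (Cat) from 107, 99 and 101 TPM to 74.2, 75.9 and 76.7 TPM (-0.43). The cytosolic dismutase Sod1 was not called (-0.0090, adjusted p = 0.882). The metallothionein Mt2 rose from 4509, 4886 and 4891 TPM to 7044, 7411 and 7358 TPM (0.61), a change that was -0.043 after quantile normalization. Tfrc, the transferrin receptor, fell from 112, 103 and 102 TPM to 50.3, 54.7 and 58 TPM.

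All 13 protein-coding genes of the mitochondrial genome rose (median 2.17). mt-Co1, a subunit of cytochrome oxidase, rose from 3317, 3195 and 3314 TPM to 12517, 13122 and 13091 TPM (1.98, SE 0.038). The complex III gene mt-Cytb rose from 858, 913 and 925 TPM to 5769, 6048 and 6032 TPM (2.73). The complex I gene mt-Nd1 rose from 2112, 2171 and 2219 TPM to 5361, 5847 and 5968 TPM (1.40). mt-Nd4l was more variable, at 24.5, 15.5 and 59.9 TPM in Aged and 209.8, 291 and 218 TPM in Aged_NZM (3.01, SE 0.38, adjusted p = 7.18e-05). The size of the change of mt-Co3 depended on 1 library. It was 98.7, 94.2 and 0.26 TPM in Aged and 242, 275 and 608 TPM in Aged_NZM. Its log2 change of 3.91 (SE 1.41, adjusted p = 0.0319) became 1.82 without the third Aged library, where it was still called (adjusted p = 0.000832), and its call was lost without any of the Aged_NZM libraries (adjusted p = 0.059, 0.0542 and 0.0899). The nuclear copies Gm28661, Gm28437 and Gm10925 summed to 5275, 5620.0 and 5831 TPM in Aged and to 27729, 29406 and 29517 TPM in Aged_NZM. They are nearly identical in sequence to mitochondrial genes, so the division of reads, and with it the value of each single gene, is uncertain. The mitochondrial ribosomal RNAs, which lack a long poly(A) tail, went the other way: mt-Rnr1 and mt-Rnr2 together were 3878, 4305 and 4225 TPM in Aged and 1066, 1225 and 1205 TPM in Aged_NZM. With the mitochondrially encoded genes, ribosomal RNAs included, taken out and TPM rescaled, 3253 genes rose and 6336 fell. The nuclear copies Gm28661, Gm28437 and Gm10925 stayed in, so the gain in TPM assigned to them was not taken out.

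Nuclear genes of respiration did not rise as a group with the mitochondrial ones. Before centring, the counts for the respiratory chain and the TCA cycle lay near the shares over all tested genes, 21.6% higher and 48.9% lower. They are therefore not a result particular to these genes. Of 27 nuclear-encoded subunits of the respiratory chain, 4 rose and 16 fell (median -0.15), and after centring the counts were 8 and 9. Cycs, cytochrome c, fell from 121, 111 and 111 TPM to 49.6, 51.5 and 52.5 TPM (-1.14), and Atp5b, of the ATP synthase, from 1345, 1287 and 1289.7 TPM to 939, 928 and 933 TPM. In the TCA cycle, 7 of 24 rose and 11 fell, which turned to 12 and 10 after centring. Pcx, which makes oxaloacetate from pyruvate, rose from 11.1, 10.4 and 10.5 TPM to 35.4, 34 and 32.8 TPM (1.59). Idh3a, an isocitrate dehydrogenase subunit, fell from 119, 116 and 119 TPM to 69, 67.4 and 66.3 TPM. Of 20 genes of glycolysis, 13 rose and 4 fell (median 0.20). The regulator Pfkfb3 rose from 81.6, 75.4 and 73.5 TPM to 134, 129.9 and 134 TPM, and the lactate carrier Slc16a1 from 208, 200.0 and 201 TPM to 335, 341 and 348 TPM. The glucose-trapping enzyme Hk2 fell from 102, 93.3 and 92.3 TPM to 58.3, 58.7 and 57.7 TPM. Hif1a was 444, 415 and 412 TPM in Aged and 475, 517 and 513 TPM in Aged_NZM (0.24), and of 17 hypoxia-responsive genes 9 rose and 6 fell.

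Genes of bone, fat and niche function moved singly. Runx2, the master factor of the bone lineage, was 59.8, 54.2 and 54.8 TPM in Aged and 63.5, 58.2 and 58.6 TPM in Aged_NZM, with overlapping groups (log2 change 0.094, adjusted p = 0.137), but it was called higher after centring, after quantile normalization, without the mitochondrially encoded genes and without the first Aged library. Alpl, alkaline phosphatase, rose from 3.52, 3.79 and 4.76 TPM to 12.3, 11.7 and 11.5 TPM (1.36). Ogn, osteoglycin, rose from 46.7, 47.3 and 46.1 TPM to 283, 305 and 307 TPM (2.65). Spp1, osteopontin, fell from 1481, 1444 and 1464 TPM to 463, 467 and 459 TPM (-1.66). Sp7 and Bglap, which mark mature osteoblasts, reached at most 0.23 TPM in any library. Pparg, the master factor of the fat lineage, fell from 9.76, 11.9 and 10.9 TPM to 7.01, 7.02 and 6.74 TPM (-0.58). Lpl, which releases fatty acids from lipoproteins, rose from 60.5, 58 and 61.3 TPM to 241, 254 and 255 TPM (2.04). Fabp4, a marker of fat cells, was 18.3, 20.8 and 22.4 TPM in Aged and 21.3, 22.6 and 20.3 TPM in Aged_NZM with overlapping groups (adjusted p = 0.487), but was called higher after centring and after quantile normalization. Sox9, the factor of the cartilage lineage, fell from 14.9, 13.2 and 13.7 TPM to 2.82, 2.97 and 3.04 TPM (-1.92). Of the niche factors, Kitl rose from 9.91, 9.84 and 9.67 TPM to 16.9, 19.1 and 18.4 TPM (0.82) along with Cxcl12, and Vcam1, which retains blood cells, was not called (-0.085).

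Secreted factors often grouped as the senescence-associated secretory phenotype were divided, with 11 of 25 higher and 13 lower (median -0.44). Il6, Cxcl12, Mmp3, Timp1, Plat, Hgf and Igfbp7 were among the members that rose, and Mmp10, Ereg, Areg, Igfbp3, Spp1, Inhba, Mmp13, Gdf15 and Cxcl2 among those that fell.

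**Figure D5:**
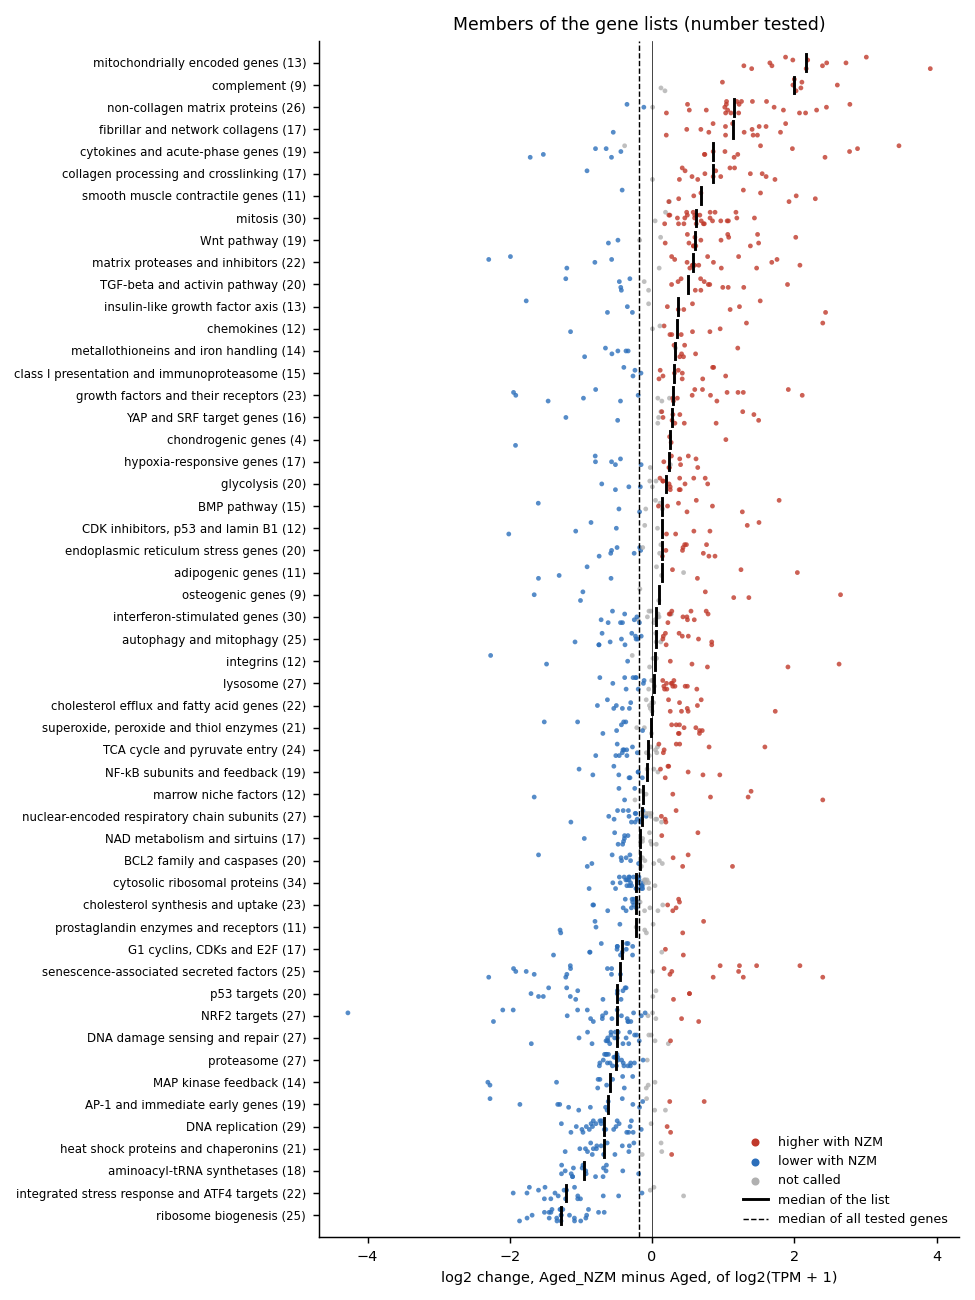
Log2 change with NZM (x axis) of every tested member of the 53 pathway lists (number tested in brackets), with the list's median as a black bar and the median of all tested genes, -0.18, as a dashed line; red rose, blue fell, grey was not called. Lists are ordered by their median, from mitochondrially encoded genes (2.17) and complement (2.00) at the top to ATF4 targets (-1.21) and ribosome biogenesis (-1.28) at the bottom.

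The BMSC response was set against that of BMDM, a usual abbreviation for bone marrow-derived macrophages, which were wild type cells given lipopolysaccharide (LPS) or LPS+NZM, with 3 libraries each. A contrast of the responses in a fit of all 15 libraries tested 16696 genes and called 12020 different (72.0%), 2876 with the higher response in BMSC (17.2%) and 9144 with the lower (54.8%). After centring these became 6663 and 4786, so the split between the directions depended on the scale. Cell type and pretreatment differed together, and which of them a difference goes with cannot be told apart. The genes compared were chosen for their large change in BMSC, and the contrast uses the same BMSC libraries, so the values are given as a description. Ccr1 showed opposite changes: it fell to near 0 in BMSC, while in BMDM it was 70.4, 67.4 and 67.5 TPM with LPS and 139, 138 and 137 TPM with LPS and NZM (difference of the log2 responses -4.83, SE 0.078). Ccn5 was 34.4, 34.3 and 33.6 TPM with LPS and 43.7, 40.6 and 42.2 TPM with LPS and NZM, so its rise in BMSC was 3.51 larger on the log2 scale. Lilr4b fell in both, with a log2 change of -3.71 in BMSC and -0.53 in BMDM, where it was 949.7, 924 and 910.4 TPM with LPS and 617, 653 and 665 TPM with LPS and NZM. For Clca3a2, Angptl7, Saa2, Gsta1, Prl2c3 and Bcl2l15 the BMDM levels were at most 1.31 TPM in any of these 6 macrophage libraries, so their differences rest mainly on the BMSC values. mt-Co3 differed by 3.59, which was not called (adjusted p = 0.0654) but was called after centring.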

How the data were processed

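Libraries of polyadenylated RNA were made from BMSC and BMDM of wild type mouse bone marrow, and the authors deposited 1 table of TPM for 15 libraries, per the file headers. Per the submitters' processing notes, fastp, HISAT2, StringTie and RSEM were used with the build GRCm39; versions, roles and the gene annotation are not given in the sources used here. Column totals were equal within rounding, so depth is unknown and no counting interval is given. Symbols were found for 52072 of 56979 identifiers, from a table of an older build (GRCm38), so no gene coordinates are given. RefSeq promoters (GRCm38.p6) were used for sequences only.

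Genes were compared on the scale log2(TPM + 1) by limma (version 3.58.1, under R 4.3.3; mean-variance trend, two-sided), in those with at least 1 TPM in 3 of the 6 BMSC libraries, with Benjamini-Hochberg adjustment over all genes tested and a call at an adjusted p under 0.05. Adding the pseudocount of 1 understates changes of genes with little TPM. An interaction contrast over all 15 libraries used the same settings. On simulated data of 13865 genes, 200 were changed. Of changes of 0.5, 1, 2 and 4 on the log2 scale, 72%, 88%, 96% and 100% were recovered. Of the calls there, 4.30% were false. In the BMSC comparison 70.5% of the tested genes were called, and whether these rates hold at such a share was not tested.

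Named genes were the 12 largest rises and falls (groups not overlapping, higher group mean of 5 TPM or more, no predicted genes), up to 4 called members with the largest change per list, a list of genes named whatever their values, and the 8 largest gains and losses in TPM; further members were added after their values were seen. The comparison, members and lists were chosen with earlier results of these data known. Of the symbols in the lists, 6 were not matched, and a few genes that are not reported here were left out of the lists and of the named genes. Lists were described by counts and medians, with no test over a list. Alternatives covered the pseudocount, filter, scaling, mean-variance trend, library weights, replicate block, samples in the fit and each library left out. Figures were drawn with matplotlib 3.10.9.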

Additional observations from a re-analysis of the deposited data

Results flagged for a closer look

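The response to NZM differed between BMSC and BMDM, by the contrast of the 2 responses, in 9 of the 10 genes with the largest changes in BMSC for which it was computed. On the log2 scale the difference, BMSC minus BMDM, was 4.56 for Clca3a2, 3.91 for Angptl7, 3.51 for Ccn5 and 4.22 for Saa2, with adjusted p between 3.86e-15 and 2.23e-09 (limma). It was -4.39 for Gsta1, -4.02 for Prl2c3, -4.83 for Ccr1, -3.18 for Lilr4b and -3.19 for Bcl2l15, with adjusted p between 3.62e-15 and 5.41e-08. In Ccr1 the responses were opposite, -3.83 in BMSC and 1.00 in BMDM, and all 3 libraries of each group followed that direction. Saa2 in BMDM was 0.43, 0.9 and 0.73 TPM with LPS and 0, 0 and 0 TPM with LPS and NZM, against 7.37, 9.17 and 11.4 TPM to 111, 112 and 112 TPM in BMSC. These genes were chosen for their large change in BMSC and the contrast uses the same libraries. The choice therefore favoured a large difference, and the p-values are given as a description and support nothing further. Over all genes, 72.0% differed by this contrast. Clca3a2, Angptl7, Saa2, Gsta1, Prl2c3 and Bcl2l15 were at most 1.31 TPM in the LPS and LPS+NZM libraries, so their difference mainly restates the BMSC change. Pretreatment and cell type changed together between the responses, and their part in the differences was not tested.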

How the results depend on the processing

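The 9774 calls ranged from 8564 to 10132 over the alternatives in tool settings, scaling and filter, apart from a minimum log2 change of 1, under which 1089 genes were called, 507 higher and 582 lower. Centring on the median gave 4318 higher and 4907 lower, and quantile normalization 4144 and 5169. Leaving out each library gave 9168 to 9514 calls, of which 2777 to 3047 were higher and 6391 to 6531 lower. The replicate numbers are not stated to pair the libraries. Deviations of same-numbered libraries correlated at -0.020, 0.015 and -0.041, and 1 of 6 libraries correlated best with its own number. With 3 libraries per group, these values cannot show whether same-numbered libraries shared an animal or culture. With a replicate block, 2986 genes rose and 6702 fell (9688 in all), and none of the 272 named genes tested changed its call. With that block, 11963 genes differed by the contrast with BMDM (2860 higher, 9103 lower). In that contrast, 6663 genes were higher and 4786 lower in BMSC after centring, and 4729 and 6092 after quantile normalization; leaving out a library gave 11751 to 11896 calls, 2774 to 2910 higher and 8948 to 9054 lower.

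Of 272 named genes tested, 266 kept direction and call after centring and 267 after quantile normalization, and 268 to 271 did so without any 1 library. Most of these genes were chosen for large called changes in the main fit, so much of this stability comes from the choice. Members added after their values were seen are not among the 272. Changes that turned sign were small: Mt2 -0.043 (quantile normalization), Lmnb1 0.055 and 0.072, and Tgfb1 0.11 and 0.11 (centring and quantile normalization), and, with each library left out in turn, Fabp4 between -0.015 (without the first Aged library) and 0.12, and Tgfb1 between -0.10 and 0.023 (without the third Aged_NZM library). The cause was not tested. Calls of Prg4 (0.25) and Ebf1 (0.29) were lost without any of 3 libraries each. After centring, 4 of 53 lists turned in their more frequent direction (TCA cycle, autophagy, NF-kB and cholesterol synthesis). TPM keep no depth, so the precision of low genes is unknown.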

Other observations

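Further gene groups were measured in the BMSC comparison. Their counts are to be read against 21.6% higher and 48.9% lower over all tested genes, with a median of -0.18. The medians of the prostaglandin, NAD and BCL2 groups lay close to that value. Of 11 prostaglandin genes tested, 2 rose and 5 fell (median -0.22). Ptgs2, the inducible cyclooxygenase, fell from 580.1, 549.5 and 554 TPM to 221, 234 and 229 TPM (-1.29, SE 0.036) and Ptgs1, the constitutive one, from 104, 101 and 97.3 TPM to 40.5, 40.3 and 41.4 TPM (-1.28). Ptges, which makes prostaglandin E from their product, fell from 92.2, 84.7 and 86.5 TPM to 51.6, 48.4 and 51.2 TPM. Of 17 genes of NAD metabolism and sirtuins, 2 rose and 8 fell (median -0.17). Sirt1, a deacetylase that uses NAD, fell from 21.5, 20.6 and 20.2 TPM to 9.13, 10.9 and 10.7 TPM (-0.95), and Naprt, which makes NAD from nicotinic acid, rose from 6.43, 5.36 and 4.25 TPM to 8.59, 8.95 and 8.92 TPM (0.64). In the BCL2 family and the caspases, 4 of 20 rose and 10 fell (median -0.17), against 6 and 7 after centring. Bcl2l1, which protects cells from apoptosis, fell from 70.5, 70.8 and 66.8 TPM to 39, 37.5 and 37.8 TPM, the death agonist Bid from 38, 37.1 and 38.9 TPM to 20.9, 19.3 and 19.1 TPM, and the death agonist Bmf rose from 0.98, 1.13 and 0.91 TPM to 3.09, 3.59 and 3.5 TPM (1.13).

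Genes of lipid metabolism and degradation moved in both directions. Of 23 genes of cholesterol synthesis and uptake, 5 rose and 13 fell (median -0.22), against 7 and 6 after centring. Msmo1 and Dhcr7, late enzymes of the pathway, fell from 45.2, 44.1 and 42.5 TPM to 25.1, 24.3 and 23.2 TPM and from 36.9, 35.3 and 35 TPM to 22.2, 18.7 and 18.5 TPM. Abca1, which exports cholesterol, rose from 7.64, 7.9 and 7.06 TPM to 26.5, 28.1 and 27.3 TPM (1.73), and Fasn, fatty acid synthase, fell from 66.4, 56 and 58.4 TPM to 36.8, 34.3 and 33.5 TPM. Among 25 autophagy genes, 10 rose and 12 fell (median 0.05), and 13 and 7 after centring. Sqstm1, the receptor p62, which is also an NRF2 target, fell from 1506, 1455 and 1474 TPM to 697, 701 and 692 TPM (-1.08), whereas Wipi1 rose from 61.4, 59.3 and 62.2 TPM to 114, 106 and 109.6 TPM and Map1lc3a from 92, 100.4 and 90.1 TPM to 179, 167 and 161 TPM. Among 27 lysosomal genes, 13 rose and 10 fell (median 0.03), and 17 and 5 after centring. Of lineages other than stroma, Krt19, an epithelial keratin, fell from 10.3, 9.65 and 8.73 TPM to 2.13, 1.72 and 1.82 TPM (-1.87) while Krt8 and Krt18 stayed at most 0.60 TPM.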
